A study of Mus musculus with 60 samples.

Results

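The 31 genes described here belong to the oligodendrocyte, the cell that wraps axons of the central nervous system in myelin. They were taken from the 18088 genes of the deposited table by matching Ensembl identifiers to gene symbols, and all 31 were found and tested. By role they comprised 5 lineage transcription factors (Olig1, Olig2, Sox10, Nkx6-2, Myrf), 4 genes of committed and newly formed oligodendrocytes (Enpp6, Bcas1, Tspan2, Gpr37), 16 genes of myelin membrane and junction proteins (Mbp, Mog, Mag, Mobp, Cnp, Mal, Cldn11, Opalin, Ermn, Gjb1, Gjc3, Hapln2, Ninj2, Plekhh1, Tmem125, Pllp) and 6 genes of lipid, iron and metabolic proteins (Ugt8a, Fa2h, Aspa, Trf, Car2, Enpp2). Poly(A) RNA was sequenced from prefrontal cortex of C57BL/6J mice at postnatal day 25. The 60 libraries formed 12 groups of 5, crossing 2 genotypes at Trip12, a ubiquitin ligase gene (labelled HT, heterozygous, and WT), 3 treatments (vehicle, fluoxetine, lithium) and both sexes. The drug or vehicle reached pups with the mother's milk between postnatal days 3 and 24; the labels give neither the Trip12 allele, the drug doses, nor which pups shared a dam, so the p-values measure the spread between these libraries.

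Oligodendrocytes arise from dividing precursors. Olig2 and Sox10 set and maintain the lineage, Myrf switches on the myelin genes as the cells leave the cycle, and newly formed cells express Enpp6 and Bcas1 for a short time before compact myelin proteins such as Mbp accumulate. In the mouse forebrain this program is under way during the weeks of treatment, and white matter and striatum are myelinated ahead of, and more densely than, the upper cortical layers. Drd1, Drd2 and Adora2a encode dopamine and adenosine receptors of striatal medium spiny neurons and served as the measure of striatal RNA in each cortical library.

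Whole-library facts were as follows. Recovered reads, in M (mega), totalled 25.1 to 36.6 per library: 26.6 to 30.99 under vehicle, 32.7 to 36.6 under fluoxetine, 32.1 to 35.9 in lithium females and 25.1 to 33.5 in lithium males. Trip12 itself was higher, not lower, in libraries labelled HT (log2 fold change 0.11 ± 0.02 SE over all treatments, limma adjusted p = 0.00137), so every direction between genotypes rests on the labels. Markers of cortical excitatory neurons, such as Slc17a7 (36400 to 56000 normalized counts), were high in all 60 libraries, and 5 summed astrocyte markers had medians of 32870, 33190 and 33280 under vehicle, fluoxetine and lithium. The summed level of 10 medium spiny neuron markers, none at 0, ran from 5917 to 20520 normalized counts under vehicle (median 6932), from 6216 to 15500 under fluoxetine (median 7531) and from 6458 to 9320 under lithium (median 7501). HT vehicle males stood apart, with a median sum of 18140. Olfactory bulb markers such as Cdhr1 also varied widely, from 71.8 to 5200 normalized counts.

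Promoter sequences are shown for 4 members selected with the lithium results described below in view. Ugt8a, Enpp6 and Opalin were lower under lithium with and without a correction for striatal genes, as was Gjb1, whose windows are not shown. Olig2 was not called without that correction and was called higher with it. Each run is the 250 bases before the annotated start in RefSeq (GRCm38.p6), read 5′ to 3′ on the gene's strand, with capitals marking ACAAAG or ACAATG on either strand, the core letters bound by SOX factors such as Sox10. The windows lie at chr3:125938653-125938902 (minus strand) for Ugt8a, chr8:46986637-46986886 (plus strand) for Enpp6, chr19:41077114-41077363 (minus strand) for Opalin and chr16:91225300-91225549 (plus strand) for Olig2.
Ugt8a: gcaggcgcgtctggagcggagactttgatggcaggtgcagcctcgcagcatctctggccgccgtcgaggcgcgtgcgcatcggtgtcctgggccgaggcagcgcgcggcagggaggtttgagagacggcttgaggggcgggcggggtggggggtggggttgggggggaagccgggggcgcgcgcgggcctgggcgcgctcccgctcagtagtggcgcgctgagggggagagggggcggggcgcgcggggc
Enpp6: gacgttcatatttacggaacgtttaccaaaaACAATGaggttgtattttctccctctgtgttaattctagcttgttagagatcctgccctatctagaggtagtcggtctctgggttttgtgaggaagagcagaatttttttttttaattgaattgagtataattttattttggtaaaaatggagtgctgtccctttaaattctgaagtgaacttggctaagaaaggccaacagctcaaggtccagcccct
Opalin: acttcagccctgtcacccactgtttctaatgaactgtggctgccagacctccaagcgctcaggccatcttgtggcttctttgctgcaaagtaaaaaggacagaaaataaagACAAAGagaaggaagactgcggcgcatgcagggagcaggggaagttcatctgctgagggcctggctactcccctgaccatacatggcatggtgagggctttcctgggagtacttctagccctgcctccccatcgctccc
Olig2: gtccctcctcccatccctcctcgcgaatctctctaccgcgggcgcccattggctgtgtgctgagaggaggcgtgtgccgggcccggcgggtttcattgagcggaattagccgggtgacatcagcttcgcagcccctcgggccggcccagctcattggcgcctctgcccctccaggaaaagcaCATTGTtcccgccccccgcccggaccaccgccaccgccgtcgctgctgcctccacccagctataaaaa
The SOX letters occurred once in the windows of Enpp6, Opalin and Olig2 and were not in the Ugt8a window. RefSeq promoters were matched for 22 of the 31 members, 28 windows in all. The SOX letters were in 12 of the 28 (42.9%) against 25.2% of 32851 mouse promoters of the same length. The E-box letters CANNTG, read by factors such as Olig2, were in 71.4% against 66.2%, and CTGGCAC or CTGGTAC, the core read by Myrf, were in 17.9% against 5.93%, both strands searched in each case. By gene, the SOX, E-box and Myrf letters were in 10, 15 and 4 of the 22 members. Mag and Gjb1 gave several windows each, and windows of Mag overlap, so the 28 windows are not independent. The shares were not tested. A match describes these letters in this window and is neither a bound site nor a cause.

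The members spanned a wide range of expression. Per kilobase of exon, Mbp, which encodes the basic protein that compacts myelin, was highest, with a median of 6327 normalized counts per kb over 60 libraries (53590 counts; chr18:82475146-82585637, GRCm38, plus strand). Mobp, a further compact myelin protein, followed at 2246 per kb, Cnp at 1823, Mal at 1718 and Cldn11, the tight junction claudin of myelin, at 1654. The lineage factors were lower, with Olig1 at 1064, Sox10 at 280.7, Olig2 at 237.5, Myrf at 100.2 and Nkx6-2 at 61.3 per kb. Enpp6 was at 66.6 and Opalin at 105.0 per kb. Ninj2 was the lowest member at 19.5 per kb, with 6 reads in its lowest library. Enpp2 varied least between libraries, 1.35-fold from lowest to highest, and Gjb1 most, 7.35-fold.

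**Figure D1:**
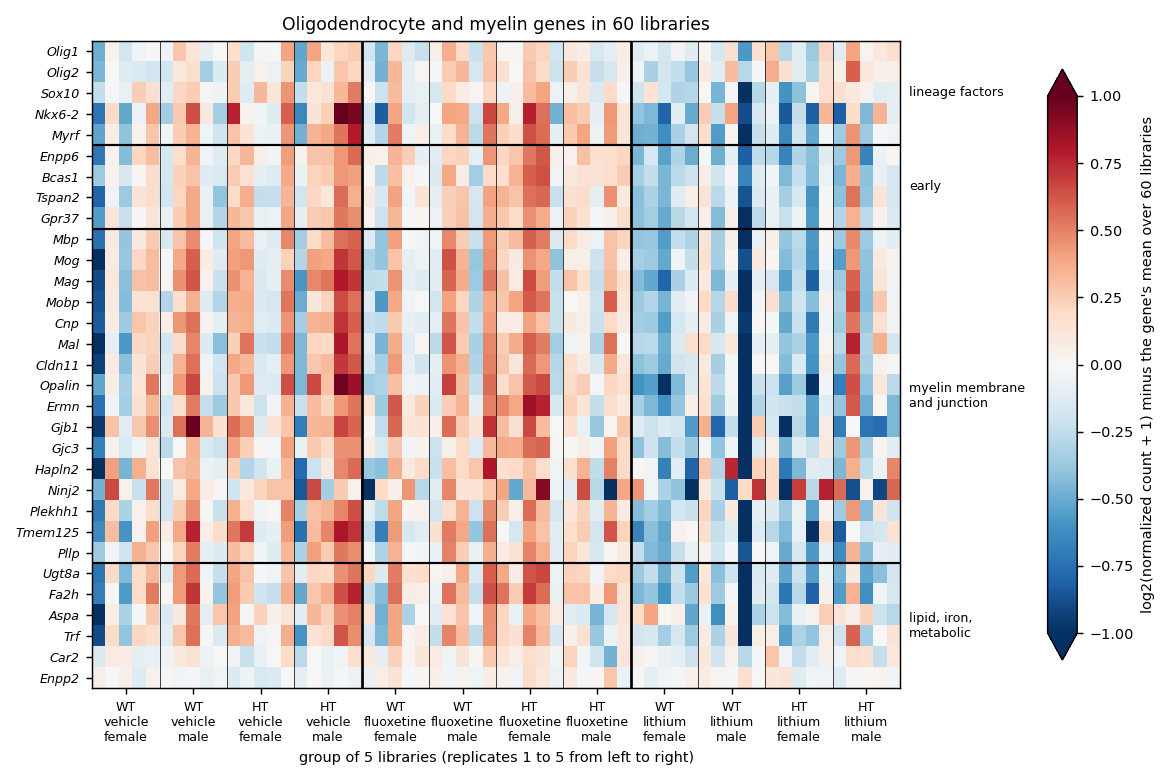
Heat map of the 31 members (rows, by role) in 60 libraries (columns, by treatment and group), as log2(normalized count + 1) minus each gene's mean over the libraries, clipped at 1 in either direction. Most members share the color of their column, lithium columns are mostly blue, and Ninj2, Car2 and Enpp2 do not follow the others.

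Members varied together from library to library. After subtraction of each group's mean, the median Pearson correlation between 2 members over the 60 libraries was 0.835 across 465 pairs, given as a description. Mag and Cnp reached 0.985, and Mbp and Cldn11 0.978. Among all other genes of the table, those most like Mbp by this measure included Cldn11, Mobp (0.973), Fa2h (0.965) and Cnp (0.964). Olig2 followed the block less closely (0.758 with Mbp), Sox10 had 0.703, and Enpp2 (median 0.111 with other members), Ninj2 (0.147) and Car2 (0.434) hardly followed it. In 43 of 60 libraries at least 26 of the 31 members lay on one side of their group's mean, 22 libraries above and 21 below. WT lithium male replicate 4 was the lowest library for 24 members, and HT vehicle male replicate 4 was the highest for 11.

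Under lithium, oligodendrocyte and myelin genes were lower than under vehicle. Over both genotypes and sexes, 20 libraries against 20, 20 of the 31 members were called lower and 0 higher, against 11.2% of 17804 genes called lower, in limma with Benjamini-Hochberg adjustment at 0.05. The median member had a log2 fold change of -0.32, and all genes together had -0.0018. The share called was 3 of 5 lineage factors, 3 of 4 early genes, 12 of 16 membrane and junction genes and 2 of 6 lipid, iron and metabolic genes. Of 10 medium spiny neuron markers 6 were called lower in the same comparison, with a median of -0.449. In this bulk RNA, fewer oligodendrocytes, less of these RNAs per cell and a different share of striatal tissue cannot be told apart. Lithium and vehicle libraries overlapped for all 31 members, and the same was not counted over all genes, so this describes the members only.

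**Figure D2:**
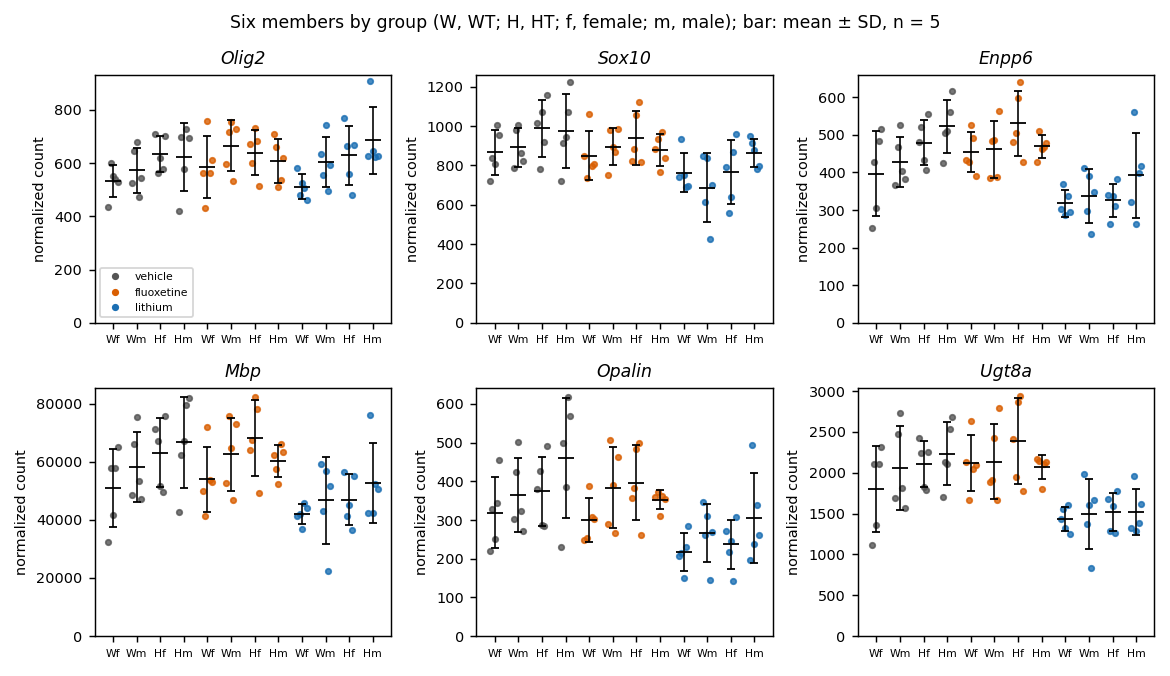
Normalized counts of 6 members by group (WT and HT, female and male, under vehicle, fluoxetine and lithium), 1 point per library with mean ± SD, n = 5. Lithium libraries of Enpp6, Opalin and Ugt8a lie mostly under the vehicle ones, and those of Olig2 lie at the same height.

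Among the lineage factors, Sox10, which maintains the lineage, ran from 722.1 to 1222 normalized counts under vehicle (median 930.9) and from 426.0 to 957.6 under lithium (median 788.3). It was lower by log2 fold change -0.28 ± 0.07 SE (adjusted p = 0.00186), with 1 of 20 lithium libraries above its vehicle group's mean. Myrf, the switch for myelin genes, ran from 604.6 to 1517 (median 936.2) under vehicle and from 381.2 to 1193 (median 721.5) under lithium, a difference of -0.39 ± 0.10 (adjusted p = 0.00258). Nkx6-2, a homeodomain factor of maturing cells, was also lower at -0.40 ± 0.14 (adjusted p = 0.0272), with 4 of 20 libraries above. Olig2 ran from 421.7 to 727.7 (median 577.0) under vehicle and from 460.8 to 908.5 (median 607.8) under lithium, and did not pass (0.04 ± 0.07, 95% interval -0.10 to 0.17). Olig1, its neighbour in the same family, did not pass either (-0.05 ± 0.07).

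Among the early genes, Enpp6, a choline phosphodiesterase of newly forming oligodendrocytes, had the smallest p of the members. It ran from 253.0 to 616.2 (median 474.3) under vehicle and from 235.3 to 562.0 (median 337.3) under lithium, a difference of -0.41 ± 0.08 (adjusted p = 9.75e-05). The highest lithium library was HT male replicate 2 and the only one above its vehicle group's mean. Bcas1, a marker of early myelinating cells, was lower by -0.30 ± 0.07 (adjusted p = 0.0011), and Gpr37, a receptor that restrains differentiation, by -0.33 ± 0.08 (adjusted p = 0.00134). Tspan2, a tetraspanin of the lineage, did not pass (-0.22 ± 0.09, adjusted p = 0.0689).

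Of the membrane and junction genes, Mbp ran from 32360 to 81810 under vehicle (median 60120) and from 22430 to 76030 under lithium (median 44510). The difference was -0.34 ± 0.10 (adjusted p = 0.00856), with 18 of 20 lithium libraries below. Mog, a surface protein of the outermost myelin, was lower by -0.34 ± 0.11 (adjusted p = 0.014), Mag, an adhesion molecule of the axon-facing layer, by -0.46 ± 0.12 (adjusted p = 0.00281), and Cnp, a protein of the non-compact channels, by -0.36 ± 0.10 (adjusted p = 0.00421). Opalin, a membrane protein of central myelin, ran from 219.5 to 617.9 (median 361.2) and from 142.2 to 493.5 (median 253.9), a difference of -0.56 ± 0.12 (adjusted p = 0.000425). Gjb1, the gap junction protein connexin 32, had the largest difference at -0.63 ± 0.13 (adjusted p = 0.000415), with all 20 lithium libraries below their vehicle group's mean (medians 167.1 and 112.7). Tmem125, a transmembrane protein, was at -0.50 ± 0.13, and Pllp, a proteolipid of compact myelin, at -0.37 ± 0.08. Gjc3, Plekhh1, Cldn11 and Ermn were also called lower, between -0.33 and -0.28. Mobp (-0.21 ± 0.11, adjusted p = 0.193), Mal (-0.19 ± 0.12, adjusted p = 0.253), Hapln2 (-0.15 ± 0.13) and Ninj2 (-0.19 ± 0.17) did not pass.

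Of the lipid and metabolic genes, Ugt8a, which makes the galactolipid of myelin, ran from 1116 to 2731 (median 2109) under vehicle and from 836.6 to 1983 (median 1494) under lithium. It was lower by -0.45 ± 0.09 (adjusted p = 0.00019), with all 20 lithium libraries below. Fa2h, which hydroxylates the fatty acids of those lipids, was lower by -0.46 ± 0.12 (adjusted p = 0.00339). Trf, transferrin (-0.24 ± 0.10, adjusted p = 0.0735), and Aspa, which frees acetate for lipid synthesis (-0.21 ± 0.09, adjusted p = 0.0854), did not pass. Car2, a carbonic anhydrase (-0.01 ± 0.05), and Enpp2, which makes lysophosphatidic acid and is also made by choroid plexus (0.04 ± 0.03), did not pass; the choroid marker Ttr was between 0.82 and 20.6 normalized counts in all libraries.

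Other genes of the lineage, in lists chosen with earlier results known, are given list by list. In this comparison of lithium with vehicle, 11.2% of all genes were called lower and 11.4% higher. Of 15 precursor genes 4 were called lower, among them Cspg5, Gpr17 and C1ql1, with a list median of -0.02. Of 12 other lineage regulators 3 were lower (Zfp488, Sirt2, St18) and Hes5, a target of Notch, was higher at 0.26 ± 0.08 (adjusted p = 0.0203). For the higher direction, 1 of 12 is not above the share of all genes. Of 32 other myelin and oligodendrocyte genes 21 were lower, with a median of -0.28, and Elovl7, a fatty acid elongase, had the smallest p (-0.35 ± 0.05).

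Over both genotypes the striatal genes were lower under lithium as well, and these values stand beside the results above. Drd2 ran from 15.99 to 399.5 normalized counts under vehicle (median 41.07) and from 23.1 to 54.87 under lithium (median 29.57), a difference of -0.93 ± 0.31 (adjusted p = 0.024). Adora2a differed by -0.91 ± 0.23 (adjusted p = 0.00218) and Drd1 by -0.55 ± 0.16 (adjusted p = 0.00796). In libraries labelled HT all 3 were called lower, Drd1 at -0.94 ± 0.22, Drd2 at -1.67 ± 0.44 and Adora2a at -1.39 ± 0.32. In WT none of the 3 was called, with Drd1 at -0.16 ± 0.22, Drd2 at -0.19 ± 0.44 and Adora2a at -0.44 ± 0.32 (limma adjusted p = 0.757, 0.867 and 0.491), where the 31 members had a median of -0.27. The interaction of genotype and lithium did not pass for any of the 3 (limma adjusted p = 0.883 each). The high values were in vehicle and fluoxetine libraries; no lithium library exceeded 54.87 for Drd2. Among HT vehicle males, replicates 1 to 5 had Drd2 at 31.57, 176.8, 361.8, 399.5 and 334.3, and Mbp at 42600, 62240, 67180, 79570 and 81810. Without the comparison that uses HT vehicle males, a choice made after seeing the data, 15 members were called lower under lithium. Over all 17804 genes, 2153 were called in either direction in that fit, against 4021 with the comparison kept. Nkx6-2 (limma adjusted p = 0.135), Mog (0.0889), Cldn11 (0.0866), Ermn (0.0904) and Plekhh1 (0.0526) no longer passed. Nkx6-2 also failed without HT vehicle male replicate 4, WT lithium male replicate 4 or WT vehicle male replicate 3, and Cldn11 without WT lithium male replicate 4. The part of striatal RNA in the lithium difference was not tested beyond the fits that follow.

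Within groups, members were higher in libraries with more striatal RNA. A striatal score was formed for each library as the mean of centred log2 Drd1, Drd2 and Adora2a, and its slope was fitted across all genes with the 12 group means. Of 31 members 28 had a positive slope past the threshold, against 5.49% of all genes called higher, and Ninj2, Car2 and Enpp2 did not pass. The slope was 0.42 ± 0.06 for Nkx6-2, 0.38 ± 0.06 for Tmem125, 0.37 ± 0.06 for Fa2h, 0.37 ± 0.05 for Mag and 0.34 ± 0.05 for Cldn11, in log2 units of the gene per unit of score. It was 0.18 ± 0.04 for Olig2, 0.17 ± 0.04 for Sox10 and 0.20 ± 0.04 for Enpp6. Of the 32 other myelin and oligodendrocyte genes, 25 had a called positive slope.

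**Figure D3:**
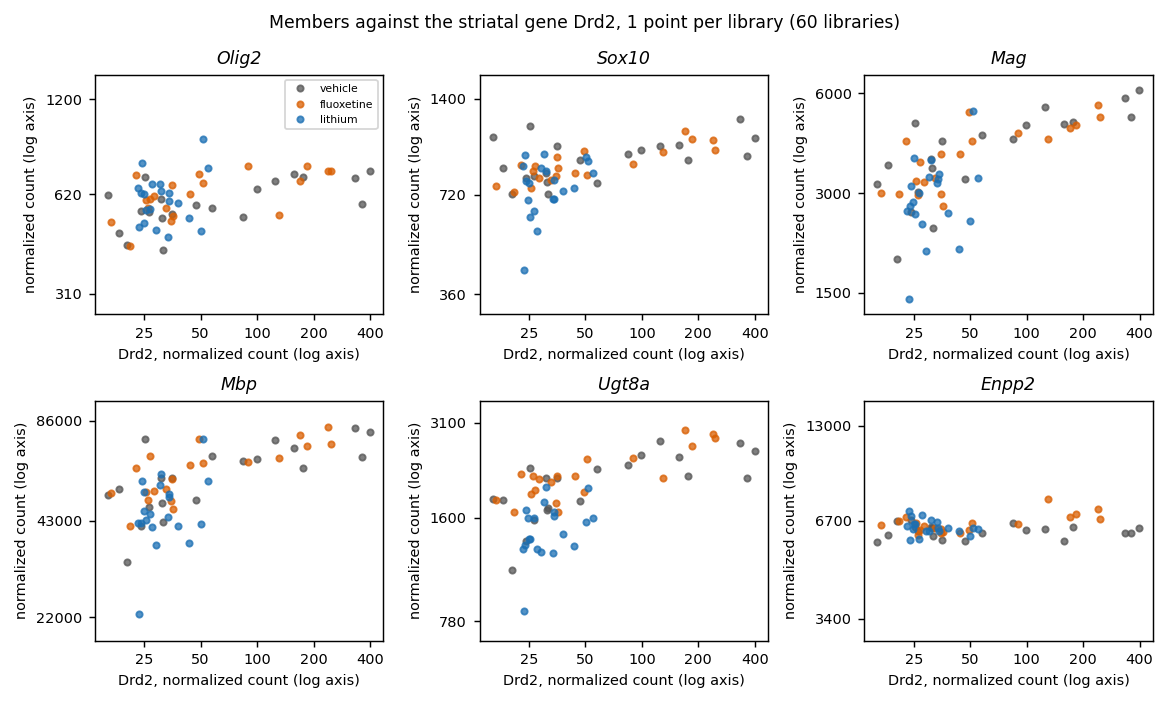
Normalized counts of 6 members against Drd2 on log axes, 1 point per library, colored by treatment. Mag, Mbp and Ugt8a climb with Drd2, lithium points lie at the low end of Drd2, and Enpp2 stays between 5786 and 7785.

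Mbp, Mog, Mag, Opalin and Sox10 were set against Drd2 library by library, as log2 deviations from the group mean, 20 relations in all with Benjamini-Hochberg adjustment. Within vehicle, Mbp and Drd2 had Pearson r = 0.749 (permutation p = 0.0001, adjusted 0.0002) and Spearman rho = 0.653 over 20 libraries, and within fluoxetine r = 0.77 and rho = 0.805 (permutation p = 5e-05, adjusted 0.00011). Within lithium r was 0.502 (permutation p = 0.026, adjusted 0.032) and rho 0.337 (permutation p = 0.15, adjusted 0.17). Without the 2 libraries farthest from the median of Drd2, r for Mbp was 0.684 within vehicle, 0.684 within fluoxetine and 0.266 within lithium, so the lithium relation rests on those 2 libraries. Mog, Mag and Opalin had r of 0.745, 0.791 and 0.73 within vehicle (rho 0.716, 0.747 and 0.633) and 0.687, 0.713 and 0.676 without the 2 farthest libraries. Within fluoxetine they had r of 0.732, 0.783 and 0.706 (rho 0.821, 0.836 and 0.788; permutation p = 0.00023, 3e-05 and 0.00046, adjusted 0.00037, 7.5e-05 and 0.00066), and 0.675, 0.707 and 0.622 without the 2 farthest libraries. Within lithium they had r of 0.419, 0.43 and 0.377 (rho 0.272, 0.308 and 0.211), with permutation p = 0.065, 0.058 and 0.1 (adjusted 0.069, 0.065 and 0.1). Sox10 had r of 0.837 within fluoxetine (rho 0.83, permutation p = 3e-05, adjusted 7.5e-05), the highest of the 20 relations and 0.786 without the 2 farthest libraries. It had r of 0.512 within vehicle (rho 0.427, permutation p = 0.02, adjusted 0.027), which was 0.353 without the 2 farthest libraries, and 0.49 within lithium (rho 0.508, permutation p = 0.029, adjusted 0.034), which was 0.443 without them. The libraries share tissue and dissection, and lithium libraries cover a narrow range of Drd2. Permutations moved deviations freely between groups, although group means had been removed and the spread of Drd2 differs between groups. These p-values may therefore be too small.

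With the score added to the lithium comparison, 4 members were called lower and 1 higher, against 8.05% of all genes called lower and 9.42% higher. For the higher direction, the share of members called was below that of all genes. For the lower direction it was above, but the difference between these shares was not tested. Enpp6 was at -0.25 ± 0.07 (adjusted p = 0.0122), Ugt8a at -0.23 ± 0.08 (adjusted p = 0.0267), Gjb1 at -0.34 ± 0.12 (adjusted p = 0.0443) and Opalin at -0.30 ± 0.11 (adjusted p = 0.0446). Olig2 was higher, at 0.18 ± 0.06 (adjusted p = 0.046). Mbp was at -0.12 ± 0.09 and Mag at -0.17 ± 0.10, neither past the threshold, and the largest positive value of a gene that did not pass was that of Hapln2 at 0.10 ± 0.12. The score and the lithium groups move together, so this fit divides a shared difference between them.

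**Figure D4:**
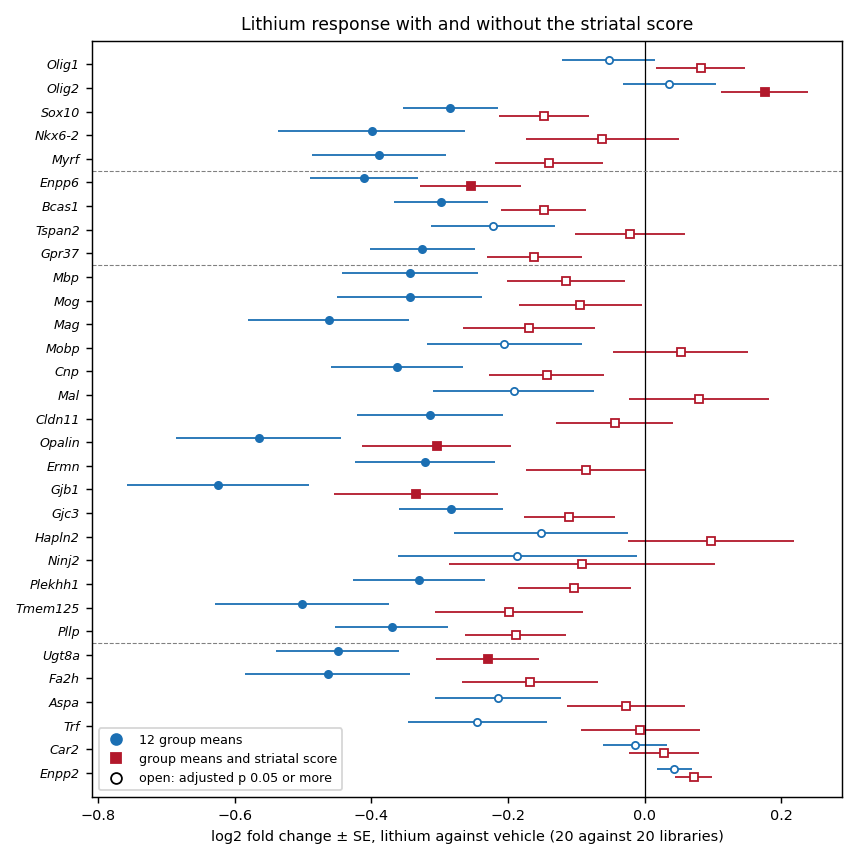
Log2 fold change ± SE of lithium against vehicle for the 31 members, with 12 group means (circles) and with the striatal score added (squares); filled symbols passed the threshold. Each square lies to the right of its circle, and Enpp6, Opalin, Gjb1 and Ugt8a stay filled.

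**Figure D5:**
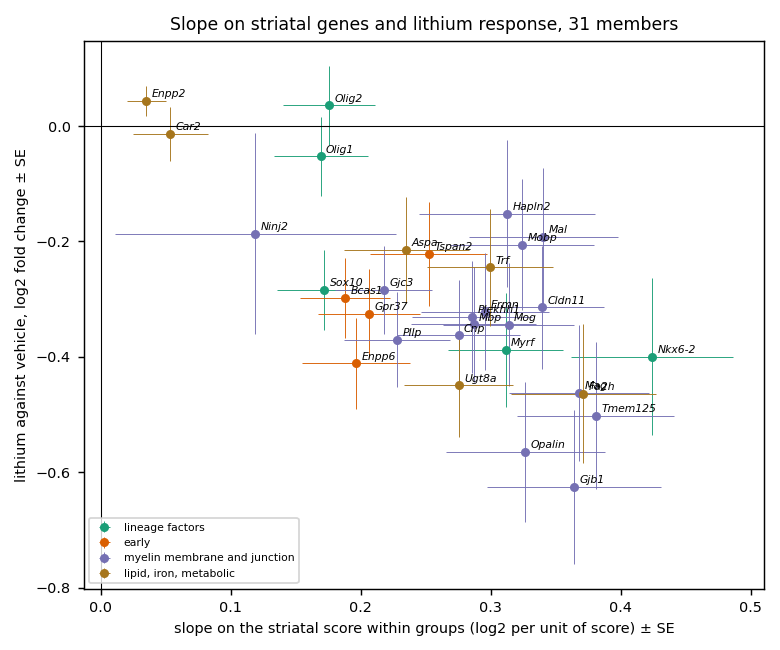
Lithium log2 fold change against the within-group slope on the striatal score for the 31 members, both ± SE. The steepest slopes, those of Nkx6-2, Tmem125, Fa2h, Mag and Gjb1, lie with lithium values between -0.63 and -0.40, and the points above or near 0 belong to Olig1, Olig2, Car2 and Enpp2. Others do not follow that order. Mal, Mobp and Hapln2 had called slopes and no called lithium difference, and Enpp6 had a smaller slope and a called lithium difference.

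By genotype, 16 members were called lower under lithium in libraries labelled HT (10 against 10; 7.14% of genes called lower), with a median of -0.37, and 0 in WT (2.11% called lower), with a median of -0.27 and 29 of 31 values negative. Beside these counts, 8 of 10 medium spiny neuron markers were called lower in HT (median -0.77) and 0 of 10 in WT (median -0.13). In WT 15 members had an unadjusted p under 0.05, DESeq2 called 2 and edgeR called 0. The interaction of genotype and lithium, the test of that difference, called 0 members in limma, DESeq2 and edgeR (0.0% of all genes), and 0 had an unadjusted p under 0.05. Enpp6 was at -0.50 ± 0.11 in HT (adjusted p = 0.00129) and -0.32 ± 0.11 in WT (adjusted p = 0.083), and Gjb1 at -0.72 ± 0.19 and -0.53 ± 0.19. The HT count was 7 without vehicle male replicate 4, 8 without vehicle female replicate 1, vehicle male replicate 5, lithium female replicates 2 or 4 or lithium male replicate 3, and 9 without vehicle female replicate 5 or lithium male replicate 1. The WT count was 5 without vehicle female replicate 1, 4 without lithium male replicate 1, and 1 without vehicle female replicate 3, vehicle male replicate 5, lithium female replicate 2 or lithium male replicates 3 or 5. Calls over all genes in either direction moved too, in HT from 2595 to 2178 without vehicle male replicate 4. In WT they went from 814 to 706 without vehicle female replicate 1 and to 882 without lithium male replicate 1. With the striatal score in HT, 0 members were lower (3.06% of all genes) and Olig2 was higher (4.57% of all genes called higher), and in WT Ugt8a was lower (2.21% of all genes); 1 of 31 is near these shares.

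Within sex, 4 members were called lower under lithium in HT males (6.58% of genes called lower): Ugt8a (-0.56 ± 0.18), Enpp6 (-0.45 ± 0.16), Gjb1 (-0.77 ± 0.27) and Bcas1 (-0.40 ± 0.14). In HT females, WT females and WT males limma called 0, where 0.534%, 0.506% and 0.775% of all genes were called lower, and 20, 1 and 11 members had an unadjusted p under 0.05. The medians were -0.35 in HT males, -0.41 in HT females, -0.21 in WT females and -0.33 in WT males. The interaction of sex and lithium called 0 members (0.0112% of genes), with 1 under an unadjusted p of 0.05.

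Lithium was also compared with fluoxetine, a serotonin reuptake inhibitor given in the same way, with the same lithium libraries. Here 21 members were lower and 0 higher (16.0% of genes called lower), with a median of -0.35 and all 31 values negative. Enpp6 again had the smallest p (adjusted p = 2.55e-06). The striatal genes Drd1 (-0.46 ± 0.16) and Adora2a (-0.63 ± 0.23) were called lower in the same comparison, and Drd2 was at -0.69 ± 0.31 (adjusted p = 0.082). The count of members was 12 with depth as a covariate and 13 with the striatal score (13.7% of all genes called lower). With depth, 4606 of 17804 genes were called in either direction, against 5863 without it.

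Under fluoxetine, set against the same vehicle libraries, few members passed. Over both genotypes 1 member, Enpp2, was called higher (6.71% of genes called higher), from a median of 6283 normalized counts under vehicle to 6536 under fluoxetine. Its difference in libraries labelled HT was 0.12 ± 0.04 (adjusted p = 0.0191), with 9 of 10 libraries above, where it was the only member called (4.7% of genes called higher). In both comparisons, 1 of 31 is not above the share of all genes. Enpp2 passed neither comparison without HT fluoxetine female replicate 3 or male replicate 4, nor with depth as a covariate (0 members called). Over both genotypes it also failed without WT vehicle female replicate 4. Every fluoxetine library (32.65 M reads or more) was deeper than every vehicle library (30.99 M or less). Depth and fluoxetine therefore cannot be told apart in the depth fit. In WT limma called 0 members (0.208% of genes in either direction), 0 had an unadjusted p under 0.05, and DESeq2 and edgeR called 0. The interaction of genotype and fluoxetine called 0 members by all 3 tools (0.0% of genes). In HT males 29 of 31 members had a negative value, with a median of -0.13, and in HT females 26 had a positive one, with a median of 0.08; the interaction of sex and fluoxetine called 0 members (0.0112% of genes), and 0 had an unadjusted p under 0.05.

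Between genotypes, 1 member passed in any of the comparisons that average the sexes. Under vehicle limma, DESeq2 and edgeR called 0 (0.152% of genes in either direction), 5 had an unadjusted p under 0.05, and 28 of 31 were positive with a median of 0.24. Under fluoxetine 0 were called (0.135% of genes), with 1 at an unadjusted p under 0.05, and under lithium 0 (0.573% of genes), with 2. By sex, 23 of 31 values were negative under fluoxetine in males (median -0.06), and in the other 5 combinations of treatment and sex 26 to 31 were positive; no test was made of these signs. Over all treatments Gjc3, the connexin 29 gene, was called higher (2.52% of genes called higher), at 0.26 ± 0.06 (adjusted p = 0.00866) with 23 of 30 HT libraries above. Olig2 was at 0.14 ± 0.06 (adjusted p = 0.135) and Mbp at 0.20 ± 0.08 (adjusted p = 0.145). The striatal sums of HT vehicle males were high. Without the comparison that uses them, 1 member was called, Gjc3 at 0.25 (limma adjusted p = 0.033), and the median was 0.14. In that fit 485 of 17804 genes were called in either direction. With the striatal score, Gjc3 was the only member called, at 0.21 ± 0.05 (limma adjusted p = 0.00788, 2.57% of genes called higher), and the median was 0.09. In each of these fits over all treatments, 1 of 31 is near the share of all genes. Between males and females over all groups limma, DESeq2 and edgeR called 0 members (1.19% of genes in either direction), 3 had an unadjusted p under 0.05, and the median was 0.08.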

How the data were processed

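Per the labels' protocols, libraries came from a TruSeq Stranded mRNA kit. The deposited table holds signal values, gene-level counts that the authors normalized with DESeq2 1.19.11; GRCm38, R 3.6.0 and Salmon 0.11.2 are also named in the submitters' processing notes. Annotation, strand setting and gene filter are not given in the sources used here, so reads from overlapping genes on opposite strands may be mixed. Whole reads were recovered from the deposited values (100% whole within 0.01; size factors 0.85 to 1.247). Names came from GENCODE M21, which matched 18077 of 18088 identifiers, and all columns were used.

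limma-trend 3.58.1 (R 4.3.3) was fitted to log2(normalized count + 1) with 12 group means over 60 libraries (48 residual degrees of freedom). Fold changes are on that scale. A gene entered if 5 or more libraries held 10 or more normalized counts (17804 tested, 284 removed), two-sided, with Benjamini-Hochberg adjustment over all of them and calls at 0.05. Libraries counted as above lie above the mean of the reference group of the same sex and genotype, or of the same sex and treatment. Correlations used 100000 permutations, not kept within groups.

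Alternatives were pseudocounts of 0.5 and 5, no filter, a filter at 50, TMM, edgeR 4.0.16 or DESeq2 1.42.0 on the recovered reads, depth or the striatal score as covariate, a replicate block, and each library left out. Leaving out the HT vehicle male difference was chosen after seeing the data. The members and lists were chosen with earlier results of these data known. All members are accounted for, with full values for those called with the 6 smallest p in a contrast and for a fixed set including Olig2, Sox10, Myrf, Enpp6, Mbp, Mag and Opalin; of other lineage lists up to 4 called genes were named, and some that this rule picks are not reported here. The labels name no batch.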

Additional observations from a re-analysis of the deposited data

Results flagged for a closer look

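In 192 sets of 5 libraries (16 genes in 12 groups), 14 held a library whose gap to its nearest neighbour exceeded 0.71 of the group's range; chance flags about 1 in 20 such groups. Among members, Olig2 was at 908.5 normalized counts in HT lithium male replicate 2, where the other 4 libraries had 622.4 to 646.9. Sox10 was at 934.8 in WT lithium female replicate 2, against 691.5 to 752.8. Mag was at 4812 in WT fluoxetine female replicate 3, against 2954 to 3335. Gjb1 was low, at 90.8, in WT lithium female replicate 5, against 116.1 to 123.3, and Ugt8a was low, at 1804, in HT fluoxetine male replicate 3, against 2103 to 2170.

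The other flags were high values of the striatal genes. WT fluoxetine female replicate 3 held Drd1 at 431.5, Drd2 at 184.2 and Adora2a at 265.2. HT fluoxetine male replicate 4 held Drd2 at 130.1 and Adora2a at 195.1, and WT vehicle female replicate 5 held Drd2 at 84.33 and Adora2a at 165.5. Adora2a was at 292.2 in HT vehicle female replicate 1, and Drd1 at 239.8 in WT lithium female replicate 5. The library with Mag at 4812 is the one with all 3 striatal genes high.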

How the results depend on the processing

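The count of 20 members lower under lithium over both genotypes lay between 19 and 21 under pseudocounts, filters, TMM, depth as covariate, DESeq2 and edgeR, was 15 without the HT vehicle male difference, and 5 (4 lower, 1 higher) with the striatal score. With that score the call count was 1 in HT, turned to the higher direction, 1 in WT and 13 for lithium against fluoxetine. It was 2 for fluoxetine over both genotypes, where 2724 of 17804 genes were called in either direction. In HT the values of Nkx6-2 and Myrf turned to 0.014 and 0.0026. With depth as covariate the counts were 0 for fluoxetine in HT and over both genotypes, 3 for lithium in WT and 12 for lithium against fluoxetine. Every fluoxetine library and every lithium female library was deeper than every vehicle library. Against vehicle, depth and treatment therefore cannot be fully told apart. Calls over all genes in either direction fell with depth too. They went from 1824 to 778 and from 2581 to 491 for fluoxetine, and from 814 to 456 for lithium in WT. DESeq2 called 2 members for lithium in WT (1012 of all genes) and 2 for HT against WT over all treatments (1113 of all genes). Fluoxetine over both genotypes had 0 without the HT vehicle male difference (1670 of all genes). The cause of these changes was not tested.

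Leaving out 1 library at a time gave 18 to 23 members for lithium over both genotypes (18 without WT lithium male replicate 4, 23 without WT vehicle female replicate 1), 7 to 20 in HT, 0 to 5 in WT, 20 to 24 for lithium against fluoxetine, 0 to 1 for fluoxetine in HT and over both genotypes, and 28 to 29 for the striatal slope. HT against WT over all treatments gave 1 to 3: 3 without HT lithium male replicate 3 or HT vehicle male replicate 1, and 2 without HT fluoxetine female 5, HT lithium female 4, HT lithium male 1, HT vehicle female 3, WT fluoxetine female 3, WT fluoxetine male 5, WT lithium male 1 or 3, WT vehicle female 2 or 5, or WT vehicle male 3. Gjc3 kept its call in each. Calls over all genes also moved in such fits, for this comparison from 900 to 1022 without HT vehicle male replicate 1. No count of members was tested against that movement.

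With the replicate number as a block, the count for lithium over both genotypes was 20 and no other count changed. Numbers share only a name: same-numbered libraries of different groups had a mean correlation of deviations of -0.000246, 70 of 330 pairs exceeded 0.1, and 12 of 60 libraries correlated best with their own number. Ninj2, with 6 reads in its lowest library, is limited by depth.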
